A study of Mus musculus with 15 samples.

Results

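The 10 genes described here are 8 heat-shock genes and 2 cold-inducible genes of mouse kidney, out of 33058 genes with linear transcripts. They were chosen by name: the HSP110 chaperone Hsph1, the HSP70 chaperones Hspa1a, Hspa1b and Hspa8, the HSP90 chaperones Hsp90aa1 and Hsp90ab1, the co-chaperone Dnajb1, the small heat-shock protein Hspb1, and the RNA-binding proteins Cirbp and Rbm3. The choice was made because Hsph1 had been seen to be lower in the 12-month-old mice, so differences of these 10 genes that involve those mice are given here as descriptions without a test. The 9 genes other than Hsph1 were tested between 24 and 3 months. These tests use the same young mice, so their p-values are not independent of the choice. A gene's value is the sum of the FPKM (fragments scaled by transcript length and by the size of the library) of its transcripts that match, lie within or overlap the annotated gene in sense. The 10 genes comprised 71 of 129029 transcripts, 60 of them Ensembl transcripts and 11 built by the authors' assembly.

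Kidneys of 15 male C57BL/6 mice (C57BL/6J in the study's methods) were sequenced, 1 library per mouse, with 5 mice each at 3, 12 and 24 months of age. All mice were kept at 25°C on standard chow. The study's methods add that mice were anesthetized with urethane before the kidneys were taken and that young and old animals were killed on 1 day, and they do not mention the 12-month-old mice. The hour at which kidneys were taken is not given in the sources used here. Mice are named by the replicate numbers of the labels, 5 to 9 at 3 months, 17 to 21 at 12 months and 31 to 35 at 24 months. These titles begin with 3M at every age, so ages were taken from the age label.

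Heat-shock proteins are chaperones that hold, refold or pass on other proteins. HSP70 proteins bind exposed stretches of a client in a cycle of ATP hydrolysis, J-domain proteins such as Dnajb1 deliver clients and speed up hydrolysis, and HSP110 proteins such as Hsph1 exchange the nucleotide and so release the client. The transcription factor Hsf1 drives the inducible members (Hspa1a, Hspa1b, Hsph1, Dnajb1, Hspb1 and Hsp90aa1) through heat-shock elements, which are inverted repeats of the unit GAA, while Hspa8 and Hsp90ab1 are made in unstressed cells. Cirbp and Rbm3 are small RNA-binding proteins known for rising when cells are mildly cooled, and their mRNAs, like several heat-shock mRNAs, follow the daily swing of body temperature.

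RefSeq promoter windows of the build GRCm38.p6 (250 bases before to 50 after each start) were found for 6 of the 10 genes, namely Hsph1, Hspa1a, Hspa1b, Dnajb1, Hspb1 and Cirbp. Both strands were searched for a pair of inverted units (GAANNTTC or TTCNNGAA), which 15.1% of 32851 promoter windows held, and for a run of 3 units (GAANNTTCNNGAA or TTCNNGAANNTTC), which 0.603% held. Every run of 3 units also contains 2 of the pairs. The stretches of 4 heat-shock genes that hold a match are shown, with the matches in capitals, because such repeats are the letters through which Hsf1 is known to bind.
Hsph1 (chr5:149636351-149636380, minus strand): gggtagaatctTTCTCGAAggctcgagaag
Hsph1 (chr5:149636287-149636304, minus strand): cagaTTCTGGAAAGTTCt
Hspa1a (chr17:34972157-34972306, minus strand): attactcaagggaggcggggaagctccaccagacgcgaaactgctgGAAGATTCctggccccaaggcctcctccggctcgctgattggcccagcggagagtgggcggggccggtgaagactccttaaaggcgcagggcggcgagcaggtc
Hspa1b (chr17:34959239-34959388, minus strand): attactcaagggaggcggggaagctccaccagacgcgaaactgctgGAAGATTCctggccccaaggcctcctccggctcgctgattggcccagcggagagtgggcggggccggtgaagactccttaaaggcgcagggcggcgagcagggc
Hspb1 (chr5:135887769-135887918, plus strand): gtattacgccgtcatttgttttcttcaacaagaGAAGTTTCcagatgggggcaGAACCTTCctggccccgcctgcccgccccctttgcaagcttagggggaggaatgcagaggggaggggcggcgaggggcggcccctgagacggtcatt
Counted from the annotated start of transcription, the pair lay at -104 in both Hspa1a and Hspa1b, at -117 and -97 in Hspb1 and at -33 in Hsph1, for which RefSeq lists 2 starts and the one at 149636336 was used. The 300-base windows of Hspa1a and Hspa1b differed at 4 bases. Hsph1 was the member with a run of 3 units, which began at +36. The windows of Dnajb1 and Cirbp held neither form, which says only that these letters are not in these windows.

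By aligned bases, the libraries held between 5.03 and 6.13 Gb (gigabases) at 3 months, between 5.84 and 8.03 Gb at 12 months and between 6.07 and 7.33 Gb at 24 months. The 10 genes took between 0.383% and 0.565% of a library's FPKM at 3 months, between 0.247% and 0.310% at 12 months and between 0.234% and 0.279% at 24 months. Principal components were taken over the 30190 transcripts averaging at least 1 FPKM, and the second held 8.83% of the variance. On it, 5 libraries (20 and 21 at 12 months, 32, 33 and 35 at 24 months) lay apart from the other 10, which include all 3-month-old mice. No label names a batch, so results are also given without these 5. Kidney markers were present in every group, with the 10 segment markers summing to between 6752 and 12241 FPKM. Leukocyte markers summed to between 26.0 and 103 FPKM at 3 months, 70.6 and 406 at 12 months and 104 and 215 at 24 months, with Igkc (an immunoglobulin light chain constant region) as the largest part. Red blood cell markers summed to between 486 and 1390 FPKM at 3 months and between 260 and 1033 at 24 months, adipocyte markers to between 8.28 and 23.6 over all mice, and the 4 adrenal cortex markers to at most 0.717 FPKM. The part of these cells in the results was not tested. In whole kidney, fewer cells of a type and less RNA per cell cannot be told apart.

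In the kidneys of 24-month-old mice, Hsph1, Hspa1a, Hspa1b and Hspa8 were lower and Cirbp and Rbm3 higher than in 3-month-old mice. Hspa8 was 2.63-fold lower by the ratio of means, Hsph1 2.40-fold lower, and Hspa1a and Hspa1b together 4.36-fold lower, while Cirbp was 2.99-fold and Rbm3 1.96-fold higher. The 2 HSP90 genes, Dnajb1 and Hspb1 overlapped between these ages. In these members the means of the 12-month-old mice lay between the other ages or below both, and nearer to the 24-month-old than to the 3-month-old mice.

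**Figure D1:**
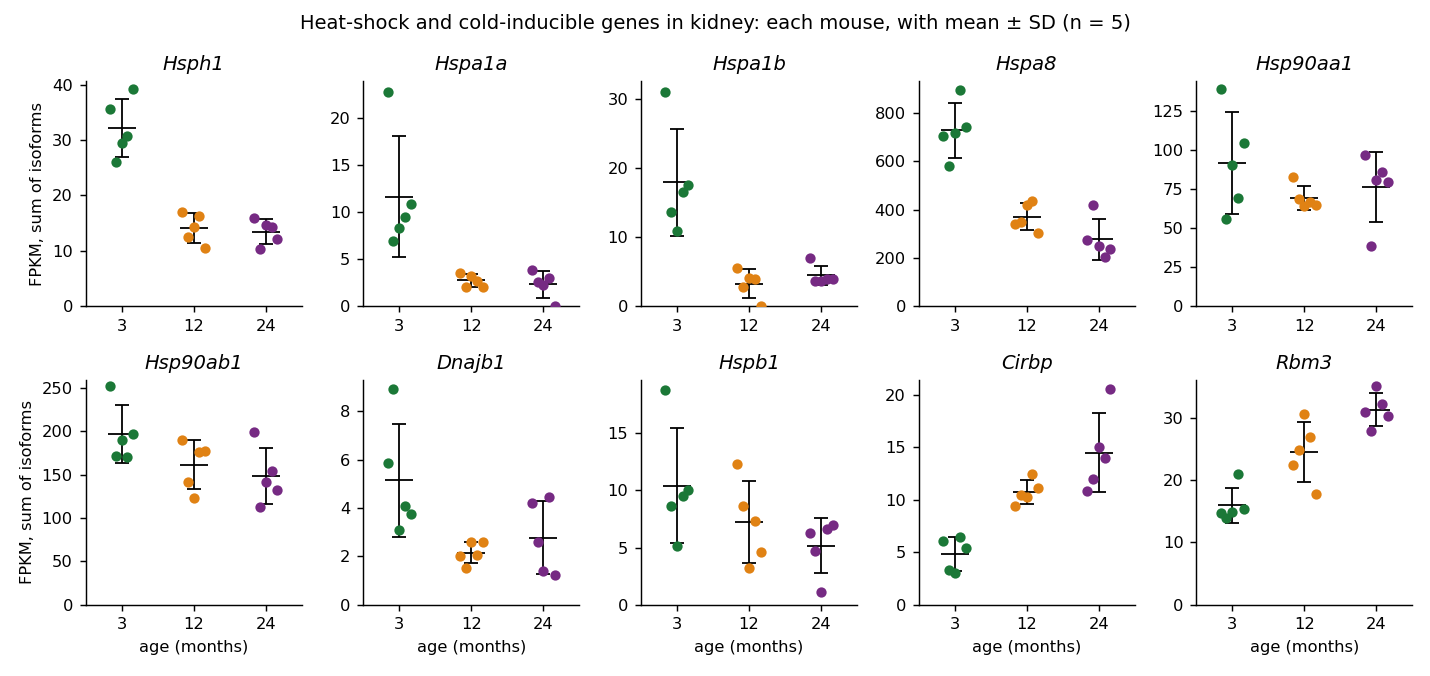
The gene-level FPKM of each mouse (points) is plotted against age in months for the 10 genes, with bars for the mean ± SD of 5 mice. Hsph1, Hspa1a, Hspa1b and Hspa8 had every 3-month-old mouse above every older mouse, and Cirbp had every 3-month-old mouse below every older mouse.

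Hsph1 lies on chromosome 5 (149614287 to 149636376, minus strand, GRCm38). It measured 35.6, 26.1, 29.4, 30.8 and 39.2 FPKM in the 3-month-old mice, 17.1, 12.5, 14.3, 16.4 and 10.5 in the 12-month-old mice and 15.9, 10.2, 14.7, 14.2 and 12.1 in the 24-month-old mice. The lowest young mouse was above the highest older mouse, and the 12- and 24-month-old mice overlapped. The means were 32.2 ± 5.21, 14.1 ± 2.71 and 13.4 ± 2.25 FPKM (SD, n = 5). On the log2(FPKM + 1) scale, on which all fold changes here are given and which understates the change of low values, Hsph1 differed by -1.14 (SE 0.15) at 12 months and by -1.20 (SE 0.14) at 24 months. Both differences were taken against the same 3-month-old mice in which the difference was first seen, so neither carries a test.

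Hspa1a and Hspa1b encode nearly the same stress-inducible HSP70 and are neighbours on chromosome 17 (34969190 to 34972156 and 34956436 to 34959238, minus strand). Of the 150-base windows of the Hspa1a transcript, 38.1% also occur in Hspa1b, and reads from such windows can be assigned to either gene. Hspa1a measured 22.8, 6.90, 8.28, 9.48 and 10.8 FPKM at 3 months, 3.56, 2.08, 3.23, 2.73 and 2.07 at 12 months, and 3.88, 2.54, 2.29, 3.02 and 0 at 24 months. Hspa1b measured 31.1, 13.6, 10.9, 16.6 and 17.6 FPKM, then 5.48, 2.80, 4.14, 3.92 and 0, then 7.01, 3.67, 3.64, 3.97 and 3.95. Each gene was listed at 0 in a different single older mouse, in which the other gene was above 0. Their sum had no zero and is the firmer measure, at 29.6 ± 14.1, 6.00 ± 2.66 and 6.79 ± 2.55 FPKM (SD, n = 5). The lowest young sum, 19.2 in mouse 7, was above the highest older sum, 10.9 in mouse 31.

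At 24 against 3 months, Hspa1a fell by 1.98 (SE 0.45, limma adjusted p = 0.0710) on the log2 scale and Hspa1b fell by 1.75 (SE 0.26, limma adjusted p = 0.0211). Their sum fell by 1.93 (SE 0.30, limma adjusted p = 0.0248). The 12-month-old mice stood at -1.66 (SE 0.28) for Hspa1a and -2.30 (SE 0.49) for Hspa1b relative to 3 months. Over 2225 bases of Hspa1a the annotation places Gm20481, a gene on the opposite strand, which measured 3.92 to 13.5 FPKM at 3 months, 1.03 to 2.11 at 12 months and 1.18 to 2.22 at 24 months. Whether the counting used strand is not given in the sources used here, so reads of Hspa1a and Gm20481 may not be separate.

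Hspa8, the constitutive HSP70 (Hsc70) on chromosome 9 (40800984 to 40810087, plus strand), was by FPKM, a measure per transcript length, the most abundant of the 10. It measured 706, 579, 716, 897 and 743 FPKM at 3 months, 342, 348, 417, 437 and 304 at 12 months, and 274, 419, 248, 205 and 236 at 24 months. No older mouse reached the lowest young mouse, and the 24-month-old mice overlapped with the 12-month-old mice through mouse 32. The means were 728 ± 114, 370 ± 55.6 and 276 ± 83.5 FPKM. At 24 months it fell by 1.43 (SE 0.22, limma adjusted p = 0.0216), and at 12 months it stood at -0.97 (SE 0.18). Processed pseudogenes, of which Gm15459 shares the most, hold 55.4% of the 150-base windows of the Hspa8 transcript, so part of its reads is shared with them. Gm15459 itself measured 89.5 to 118 FPKM at 3 months and 27.1 to 51.6 at 24 months, so gene and pseudogene differed in the same direction.

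The HSP90 pair overlapped between all ages. Hsp90aa1, the inducible form on chromosome 12 (110690605 to 110702728, minus strand), measured 139, 55.6, 90.7, 69.1 and 104 FPKM at 3 months, 82.9, 68.7, 64.2, 67.0 and 64.9 at 12 months, and 96.9, 38.5, 80.5, 86.1 and 79.3 at 24 months. Hsp90ab1, the constitutive form on chromosome 17 (45567775 to 45573271, minus strand), measured 252.3, 171, 190, 171 and 197 FPKM, then 189, 141, 123, 176 and 178, then 199, 112, 142, 154 and 132. Young mouse 5 was the highest of all 15 mice for both genes. At 24 against 3 months the difference was -0.26 (SE 0.30, limma adjusted p = 0.709) for Hsp90aa1 and -0.42 (SE 0.17, limma adjusted p = 0.282) for Hsp90ab1. Without the 5 libraries that lie apart, these were 0.06 (SE 0.34) and -0.15 (SE 0.20), so the direction for Hsp90aa1 turned.

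Dnajb1 and Hspb1 were low in level and overlapped between 3 and 24 months. Dnajb1, on chromosome 8 (83608193 to 83612653, plus strand), measured 5.85, 8.92, 3.08, 4.10 and 3.76 FPKM at 3 months, 2.01, 1.53, 2.61, 2.04 and 2.59 at 12 months, and 4.19, 2.58, 1.41, 4.46 and 1.24 at 24 months. Every 12-month-old mouse was below every young mouse, whereas the 24-month-old mice spread across both. Hspb1, which encodes a small chaperone that keeps unfolding proteins soluble, lies on chromosome 5 (135887919 to 135889563, plus strand) and measured 18.8, 8.67, 5.18, 9.49 and 10.0 FPKM, then 12.3, 8.64, 3.21, 7.30 and 4.597, then 6.25, 4.68, 1.15, 6.65 and 7.02. Its ages overlapped throughout. At 24 months Dnajb1 stood at -0.72 (SE 0.33, limma adjusted p = 0.340) and Hspb1 at -0.93 (SE 0.41, limma adjusted p = 0.326), and neither passed. Without the 5 libraries that lie apart, these were -0.13 (SE 0.34) and -0.52 (SE 0.40).

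The cold-inducible genes had the opposite direction. Cirbp, on chromosome 10 (80165985 to 80172786, plus strand), measured 6.05, 3.32, 2.99, 6.42 and 5.44 FPKM at 3 months, 9.44, 10.4, 10.3, 12.4 and 11.1 at 12 months, and 10.9, 12.0, 15.1, 13.96 and 20.6 at 24 months. Rbm3, on the X chromosome (8138975 to 8145880, minus strand), measured 14.7, 13.9, 14.8, 20.9 and 15.4 FPKM, then 22.5, 24.8, 30.7, 26.8 and 17.7, then 30.96, 27.8, 35.01, 32.2 and 30.3. All 24-month-old mice were above all young mice for both genes, and at 12 months mouse 21 was the single mouse whose Rbm3 lay within the young range. Cirbp rose by 1.42 (SE 0.22, limma adjusted p = 0.0250) at 24 months and Rbm3 by 0.94 (SE 0.11, limma adjusted p = 0.0115). At 12 months they stood at 1.05 (SE 0.18) and 0.58 (SE 0.15) against the same young mice. The means of Cirbp were 4.85 ± 1.59, 10.7 ± 1.11 and 14.5 ± 3.77 FPKM, and those of Rbm3 were 15.96 ± 2.83, 24.5 ± 4.84 and 31.3 ± 2.64 FPKM. The rise of Cirbp depended on which transcripts were summed: over fully matching annotated transcripts alone it was 0.63 (SE 0.32) and did not pass, whereas Rbm3 then rose by 0.98 (SE 0.11).

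Between 24 and 3 months, 6 of the 10 genes did not overlap (4 lower, with Hsph1 among them, and 2 higher), as did 4.73% of all genes. A gene was called where its unadjusted p was under 0.05 and its log2 fold change beyond 1 in either direction, which held for 0.523% of all 31755 genes tested. These include genes near 0 FPKM. In a fit of the 15688 genes with a mean of at least 0.5 FPKM, 89 were called higher and 86 lower. Hsph1, which prompted the choice, was left out of the count of called genes. Of the other 9 genes 4 were called, Hspa1a, Hspa1b and Hspa8 lower and Cirbp higher. At an adjusted p under 0.05 with no limit on the fold (1.22% of all genes), the called genes other than Hsph1 were Hspa1b, Hspa8, Cirbp and Rbm3. The same 4 genes were called without the libraries that lie apart, when 2 mice of 24 months remained, with log2 fold changes from -1.60 for Hspa8 to -1.40 for Hspa1a among those lower and of 1.24 for Cirbp. Hsph1 then stood at -1.04, and of all 30506 genes tested 187 were called higher and 133 lower. The median over the 8 heat-shock genes, Hsph1 included, was -1.07 and that over the 2 cold-inducible genes 1.18, beside 0.02 over all genes. The members were named with these data in view, so these counts describe them and set them apart from no other list.

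**Figure D2:**
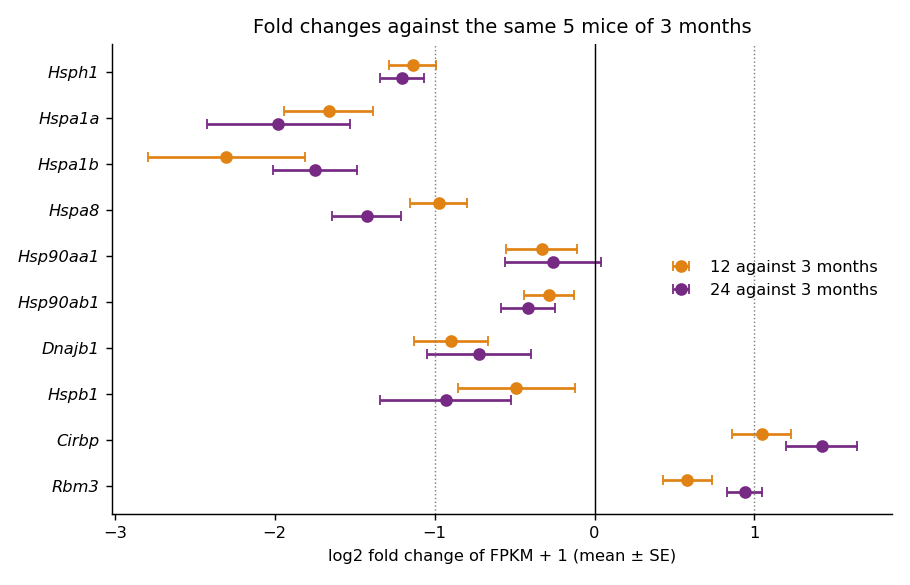
Log2 fold changes of FPKM + 1 (x axis, points, with bars for ± SE) are plotted for the 10 genes at 12 and at 24 months, both against the same 5 mice of 3 months. The dotted lines mark -1 and 1. The 8 heat-shock genes lie left of 0 and the 2 cold-inducible genes right of 0 at both ages, from -2.30 for Hspa1b at 12 months to 1.42 for Cirbp at 24 months.

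Most of the difference was present by 12 months. At 12 against 3 months, 6 of the 10 genes did not overlap (5 lower, with Dnajb1 and Hsph1 among them, and Cirbp higher), and so did 4.11% of all genes. Hsph1 is in this count by the choice of the set, so the count is a description. The direction was the same at both ages for all 10 genes, but both comparisons share the young mice. Between 12 and 24 months, 0 of the 10 genes were without overlap, against 1.07% of all genes, and the differences ran from -0.45 (SE 0.20) for Hspa8 and -0.44 (SE 0.42) for Hspb1 to 0.37 (SE 0.15) for Cirbp and 0.56 (SE 0.46) for Hspa1b. The value of Hspa1b was 0.09 (SE 0.20) without mouse 21, in which it was listed at 0, and the sum of Hspa1a and Hspa1b stood at 0.20 (SE 0.33). Without the 5 libraries apart, Dnajb1 was 0.82 (SE 0.20) higher at 24 than at 12 months, compared with 0.17 (SE 0.27) with all mice.

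Of the 71 transcripts of these genes, 34 averaged at least 1 FPKM at 1 or more ages, and outside Hsph1 5 of 56 passed both limits at 24 against 3 months (0.795% of 124719 transcripts did). Lower were the single transcripts of Hspa1a and Hspa1b, and ENSMUST00000015800 of Hspa8. Higher were ENSMUST00000115616 of Rbm3 and the assembled MSTRG.4106.5 of Cirbp. None of these 56 had an adjusted p under 0.05 (limma), which 0.0192% of all transcripts had. An unadjusted p under 0.05 was held by 11 of them and by 9855 of all 124719 transcripts. The authors' software divides reads among overlapping isoforms, so isoforms of a gene are not measured independently.

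For Hsph1, the main protein-coding isoform ENSMUST00000202361 (3802 bases) averaged 19.3 ± 7.88 FPKM at 3 months, 10.2 ± 3.23 at 12 months and 5.60 ± 2.90 at 24 months (SD, n = 5). Every 24-month-old mouse was below every young mouse. The retained-intron isoform ENSMUST00000201431 averaged 5.61 ± 2.43, 1.70 ± 0.532 and 2.71 ± 0.728 FPKM, and the assembled MSTRG.29326.6 averaged 1.69 ± 0.870, 0.850 ± 0.422 and 2.47 ± 1.86 FPKM. Protein-coding isoforms thus made up 67.6% ± 17.04 of Hsph1 at 3 months, 75.2% ± 12.1 at 12 months and 51.3% ± 15.6 at 24 months.

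Hspa8 spread over 3 abundant isoforms. ENSMUST00000015800 averaged 253 ± 172, 120 ± 29.7 and 101 ± 28.1 FPKM at the 3 ages, the protein-coding ENSMUST00000117557 173 ± 100, 128 ± 29.9 and 87.3 ± 18.1, and ENSMUST00000153847, annotated as a processed transcript, 219 ± 156, 83.5 ± 34.8 and 54.5 ± 51.7. The large SD of ENSMUST00000015800 at 3 months came with mouse 6, in which 95.2% of Hspa8 was assigned to it, while the next young mouse had 30.9%. The isoforms not annotated as protein-coding summed to 22.7 FPKM in mouse 6 and 599 in mouse 8. In the other young mice they summed to between 262 and 330 FPKM. Summed over its protein-coding isoforms, Hspa8 was 428 ± 98.5 FPKM at 3 months and 189 ± 29.3 at 24 months, with no overlap. Hsp90aa1 was nearly all ENSMUST00000094361, at 80.3 ± 22.6, 65.4 ± 6.31 and 68.0 ± 22.8 FPKM. Hsp90ab1 was split between ENSMUST00000024739, at 164 ± 36.2, 116 ± 58.2 and 98.9 ± 44.4 FPKM, and the assembled MSTRG.15663.2, at 27.6 ± 7.52, 39.8 ± 34.9 and 43.3 ± 19.4 FPKM.

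The 2 cold-inducible genes differed in which isoforms were higher. In Rbm3, the 6 protein-coding isoforms together measured 8.71 to 15.6 FPKM at 3 months, 13.9 to 28.0 at 12 months and 23.7 to 29.7 at 24 months, while the 7 other isoforms averaged 4.06 ± 1.80, 3.46 ± 0.898 and 4.10 ± 1.76. Its leading isoform ENSMUST00000115616 ranged from 0.492 to 6.11 FPKM at 3 months and from 9.59 to 19.3 at 24 months, without overlap. In Cirbp, the 2 protein-coding isoforms averaged 1.01 ± 0.960 FPKM at 3 months, 1.51 ± 1.84 at 12 months and 0.764 ± 0.994 at 24 months, with overlap at all ages. The 8 other isoforms of Cirbp measured 6.05, 2.03, 1.17, 4.46 and 5.44 FPKM in the young mice and 9.83, 11.9, 15.1, 11.6 and 20.2 in the 24-month-old mice. The difference in Cirbp was thus in transcripts not annotated as protein-coding. Among them the retained-intron ENSMUST00000140774 averaged 1.95 ± 1.47 FPKM at 3 months and 5.43 ± 4.31 at 24 months. The assembled MSTRG.4106.5 was listed at 0 in all 5 young mice, in 2 of 5 at 12 months and in 2 of 5 at 24 months, where the other 3 measured 7.43, 7.71 and 8.30 FPKM.

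**Figure D3:**
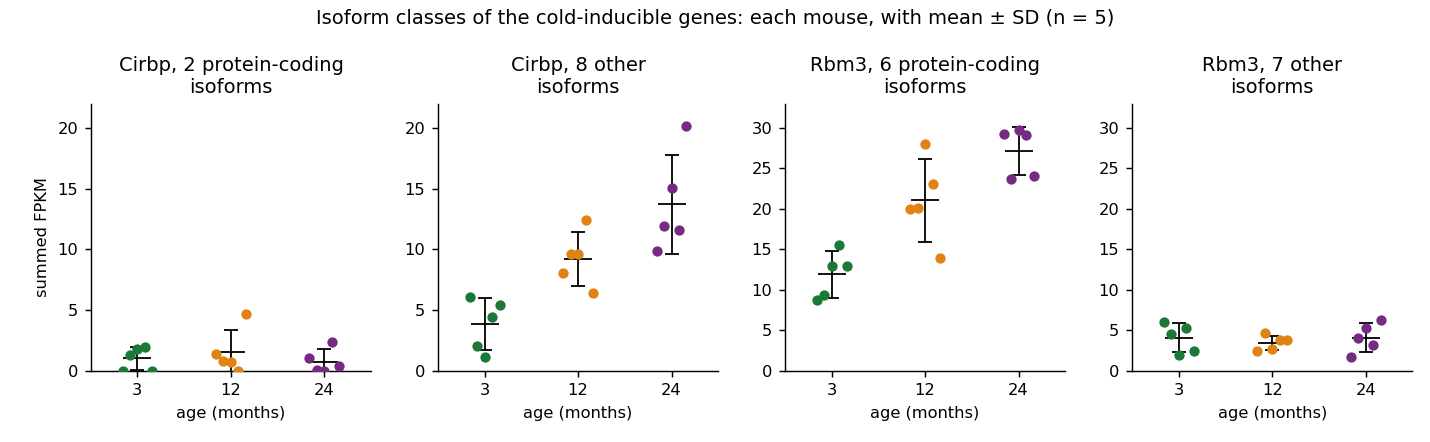
Summed FPKM (y axis) of the isoforms annotated as protein-coding and of all other isoforms is plotted against age in months for Cirbp and Rbm3, with a point per mouse and bars for the mean ± SD of 5 mice. For Rbm3 the protein-coding isoforms were higher in the 24-month-old mice (23.7 to 29.7 FPKM) than in the young (8.71 to 15.6), and for Cirbp the other isoforms were (9.83 to 20.2 against 1.17 to 6.05). The other isoforms of each gene include 3 assembled transcripts, whose coding status is not annotated.

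The share of a gene's FPKM in its leading isoform was compared between 24 and 3 months for the 8 members with more than 1 isoform. None passed an exact permutation test over all assignments of the 10 mice, 2-sided, after adjustment over the 8, and 1 had an unadjusted p under 0.05. That was Hsp90ab1, whose leading isoform held 83.2% ± 4.75 at 3 months and 64.5% ± 19.1 at 24 months (exact p = 0.0476, adjusted p = 0.381). For Hsph1 the shares were 58.7% ± 17.7 and 42.5% ± 19.9 (exact p = 0.230, adjusted p = 0.614), and for Rbm3 27.2% ± 14.9 and 43.3% ± 13.7 (exact p = 0.143, adjusted p = 0.571). With 5 mice an age, the smallest p this test can give is 0.00794.

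Hspa8 was the member with listed circular RNAs. The exonic circle circRNA3695 (chr9:40801918-40804363, 6 exons) was the 7th most abundant of 11929 circles by mean estimated count. Its estimated counts were 36499, 33654, 40407, 39166 and 39628 in the young mice, 27096, 23154, 33013, 20652 and 17747 in the 12-month-old mice, and 19402, 21817, 14890, 16577 and 14016 in the 24-month-old mice. All older mice were below all young mice, as for the linear gene. Scaled to the total circular count of the library (CPM), the means were 4801 ± 383, 2792 ± 456 and 2093 ± 476, a 2.29-fold lower level at 24 months, beside 2.63-fold for the linear FPKM. How these estimates were made, and whether they include reads of the linear RNA over the same exons, is not given in the sources used here, so they are given without a test. The intronic circle ciRNA520 (chr9:40802128-40802417) had between 6.00 and 22.5 estimated counts and overlapped between ages.

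**Figure D4:**
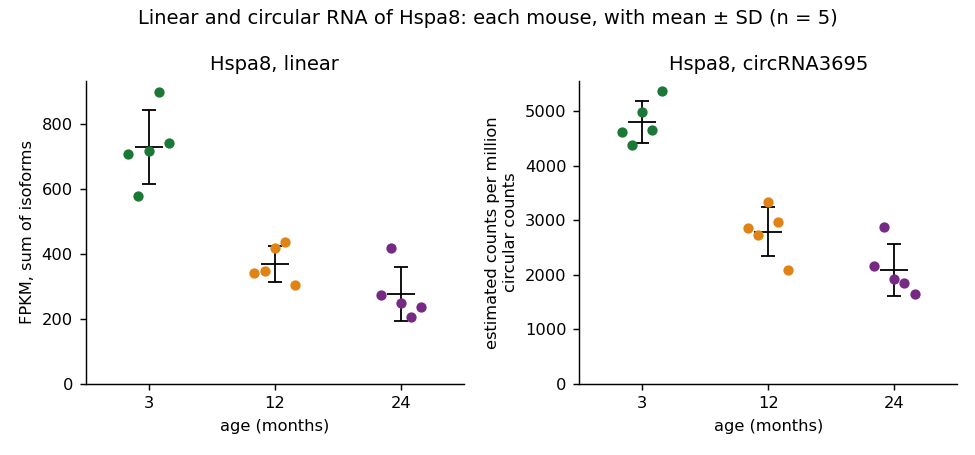
The linear FPKM of Hspa8 (left) and its circRNA3695 in CPM of the circular counts (right) are plotted against age in months, with a point per mouse and bars for the mean ± SD of 5 mice. In both panels the young mice lie above all older mice, with circle means of 4801, 2792 and 2093.

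Mice of the same age were compared to see which members varied together, with each gene's mean at each age subtracted. Over the 15 mice, 33 of the 45 pairs had a positive Pearson r and 3 pairs had an adjusted p under 0.05 by permutation within ages (100000 permutations). Hsp90aa1 and Hsp90ab1 had r = 0.76 (permutation p = 0.00124, adjusted p = 0.0345) and Spearman's rho = 0.78 (permutation p = 0.00115, adjusted p = 0.0517), and r was 0.54 without the 2 farthest mice. In each pair these were the 2 mice farthest from the median of the first gene named, whatever the second gene was. Hsph1 and Hsp90aa1 had r = 0.72 (permutation p = 0.00195, adjusted p = 0.0345) and rho = 0.74 (permutation p = 0.00257, adjusted p = 0.0578), and r was 0.67 without the 2 farthest mice. Hsph1 and Hspa1b had r = 0.72 (permutation p = 0.0023, adjusted p = 0.0345) and rho = 0.69 (permutation p = 0.00562, adjusted p = 0.0804), and r was 0.74 without the 2 farthest mice. Those were mice 9 and 5, so mouse 21, with Hspa1b listed at 0, stayed in. Hsph1 was not paired with the sum of Hspa1a and Hspa1b. By rank, 0 pairs had an adjusted p under 0.05 and 7 had an unadjusted p under 0.05. Hsph1 and Hspa8, which were both lower at the older ages, had r = -0.02 within ages (permutation p = 0.948, adjusted p = 0.969), and Cirbp and Rbm3 had r = 0.31 (permutation p = 0.249, adjusted p = 0.606). Leaving out single mice left between 0 and 5 pairs, and 0 pairs remained without any one of mice 6, 8, 17 or 34.

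**Figure D5:**
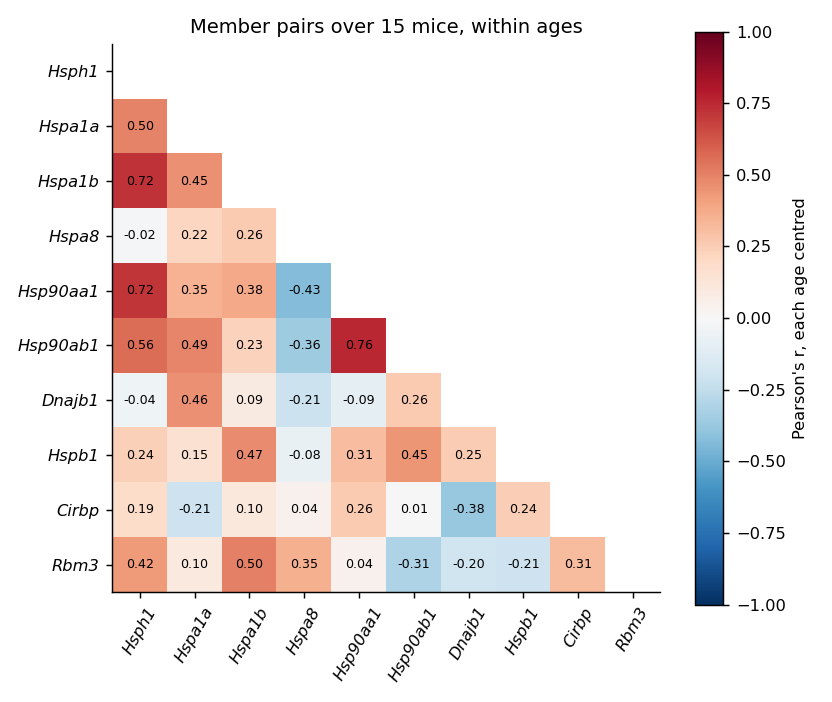
Pearson's r between pairs of the 10 genes over 15 mice, with the mean of each age subtracted, is shown as colour and number. The highest values join Hsp90aa1 with Hsp90ab1 (0.76) and Hsph1 with Hspa1b and with Hsp90aa1 (0.72 each).

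The genes whose pattern over all 15 mice was most like that of Hsph1 were ranked by Pearson's r of log2(FPKM + 1) among 13445 genes, as a description in which the age difference itself is shared. The first 10 were Gm26669 (r = 0.94), Atp2a2 (0.92), Rabgef1 (0.91), Gm20481 (0.90), Hspa1b (0.89), Nfil3 (0.89), Hspa1a (0.87), Slc22a19 (0.87), Jmjd1c (0.87) and Unc5c (0.86). Both inducible HSP70 genes were thus among them, and Hspa8 ranked 29 (r = 0.82). Reads of Hspa1a may be shared with Hspa1b and with Gm20481, so these genes are not separate measures. For Cirbp the first 10 were Serinc5 (r = 0.93), Lrriq3 (0.92), 1700028E10Rik (0.91), Gm15319 (0.91), Gm16035 (0.90), Usp28 (0.89), Rpl21-ps14 (0.89), Akr1c12 (0.89), Hnrnpa1 (0.89) and Gm14957 (0.89), and Rbm3 ranked 18 (r = 0.86). Nfil3, a repressor in the circadian output, measured 5.74 to 11.7 FPKM at 3 months and 0.476 to 1.07 at 24 months.

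Other genes of the chaperone network were examined at the same limits together with immediate early and clock genes, 97 genes in 10 lists. At 24 against 3 months 11 of the 96 measured genes were called lower and 3 higher, where 0.523% of all genes were called and 0.265% lower. All 3 called higher were clock genes. Of those called lower, 5 were early genes and 2 clock genes, and the others were Fkbp5, Hspa5, Sdf2l1 and Manf. The median of the 96 genes was -0.08 beside 0.02 over all genes. Without the libraries apart 12 were called, with Hspa5, Manf and Atf3 no longer among them and Tef added. Of all 30506 genes in that fit, 187 were called higher and 133 lower. Among the 4 heat-shock factor genes none was called by limma. Of these, 3 (Hsf1, Hsf2 and Hsf4) had an unadjusted p under 0.05, as did 4725 of all 31755 genes. Hsf1, the main activator, measured 7.69 ± 0.729 FPKM at 3 months and 5.97 ± 0.655 at 24 months (log2 fold change -0.32, SE 0.09, limma adjusted p = 0.112). None of the 13 other HSP70 and HSP110 proteins and exchange factors, 8 other J-domain proteins, 5 measured small heat-shock proteins, 12 chaperonins and mitochondrial chaperones or 6 cold-shock-domain proteins was called by limma. At an unadjusted p under 0.05 stood 4 of them, beside 4725 of all 31755 genes. They were the J-domain genes Dnaja1 and Dnajb2 (lower) and Dnajb6 (higher) and the mitochondrial Trap1 (lower), each by less than 1 on the log2 scale. The HSP90 co-chaperone Fkbp5, also a target of the glucocorticoid receptor, was 1 of 13 called (log2 fold change -1.12, SE 0.29, limma adjusted p = 0.102).

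Of the 12 chaperones of the endoplasmic reticulum 3 were called lower, beside 0.265% of all genes, and their median was -0.48. Hspa5, the HSP70 of the endoplasmic reticulum (BiP), measured 59.9 ± 8.46 FPKM at 3 months, 39.4 ± 7.60 at 12 months and 28.6 ± 5.87 at 24 months (log2 fold change -1.05, SE 0.14, limma adjusted p = 0.0165). The other 2 were Sdf2l1 (-1.26, SE 0.28, limma adjusted p = 0.0667) and Manf (-1.48, SE 0.50, limma adjusted p = 0.198). At a limma adjusted p under 0.05 with no limit on the fold stood Hspa5 and Creld2, both lower, beside 1.22% of all genes. Without the libraries apart Sdf2l1 alone of the 3 was called (-1.45, SE 0.40), with Hspa5 at -0.81 (SE 0.16) and Manf at -1.37 (SE 0.70). Hspa5 was also not called without mouse 5, 32 or 35, where it stood between -0.98 and -0.97.

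Some genes that respond to handling or to the time of day differed between the same ages, and their part in the results was not tested. Of 10 immediate early genes, which rise within minutes of a stimulus, 5 were called lower at 24 against 3 months (Fos, Fosb, Egr1, Atf3 and Dusp1), where 0.265% of all genes were, and all 10 had a log2 fold change below 0. Dusp1 averaged 65.6 ± 8.01 FPKM at 3 months and 26.9 ± 13.4 at 24 months (log2 fold change -1.36, SE 0.27, limma adjusted p = 0.0477). Fos spanned 3.39 to 17.7 FPKM in the young mice and 0.528 to 9.30 in the 24-month-old mice, so these groups overlapped. Of 13 clock genes, Arntl (-2.51, SE 0.32, limma adjusted p = 0.0146) and Npas2 (-1.97, SE 0.21, limma adjusted p = 0.0088) were lower, and Dbp (2.60, SE 0.39, limma adjusted p = 0.0216), Per3 (1.64, SE 0.27, limma adjusted p = 0.0300) and Ciart (1.51, SE 0.35, limma adjusted p = 0.0736) were higher. Dbp spanned 0.0624 to 2.14 FPKM at 3 months, 4.89 to 12.7 at 12 months and 6.44 to 23.7 at 24 months, a split between young and older mice like that of Cirbp. At 12 against 3 months the same 5 clock genes, Jun and Dusp1 among the early genes and Dnajb9 of the endoplasmic reticulum were called (8 of 97, beside 0.499% of all genes). Between 24 and 12 months 3 of 97 were called, beside 0.17% of all genes (Arntl and Hspa2 lower, Jun higher), with Jun listed at 0 in all 5 mice of 12 months and Hspa2 listed at 0 in all 5 of 24 months.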

How the data were processed

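Kidney RNA of 15 mice was sequenced in separate libraries. The labels describe removal of ribosomal RNA and a stranded kit, and the study's methods purification on oligo(dT) beads. These methods also speak of pooled RNA, whereas the labels list a library per mouse. Reads were trimmed by the authors (Cutadapt), aligned to GRCm38 with Ensembl release 88 (Bowtie2, HISAT2) and assembled (StringTie). TopHat2 is named as well in the submitters' processing notes. For each transcript, the authors deposited StringTie's FPKM and its mean coverage signal. Circular RNAs were deposited as estimated counts and FPKM, whose making is not given in the sources used here.

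FPKM was summed per gene over transcripts of class codes =, c, j and o. Genes or transcripts above 0 in at least 1 mouse of the ages compared were tested with limma 3.58.1 (trend, R 4.3.3) on log2(FPKM + 1), with Benjamini-Hochberg adjustment over all of them. Depth was read from the ratio of coverage to FPKM. Because FPKM values are not counts, no counting interval was computed, and the 5 mice of an age give the precision. On simulated data, limma called 185 of 200 genes changed by 1.5 (log2) and 55 unchanged ones of 31748, and 151 of 200 transcripts with 459 unchanged of 124705. The simulated noise was normal and independent on the log2(FPKM + 1) scale. Changed genes and transcripts were drawn from those averaging above 1 FPKM, so lower ones were not covered. The libraries and annotation (GENCODE and RefSeq) share the build. Shared sequence was measured in windows of 150 bases of each leading transcript. Everything else ran in Python 3.11.15 (scipy 1.17.1, pandas 2.3.3, numpy 2.4.6, matplotlib 3.10.9).

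The members and lists were chosen with earlier results of these data known. Named were the 10 genes, up to 5 called genes of the other lists per direction and comparison, and the 10 genes most like Hsph1 and most like Cirbp. Of the 34 isoforms of at least 1 FPKM on average at an age, only some were named. At 24 months Hspa5, Sdf2l1, Manf, Creld2, Fkbp5, Atf3 and Dusp1, and further the levels of Nfil3, Hsf1, Hsf2, Hsf4, Tef, Trap1, the J-domain genes, Per2, Igkc, Gm20481 and the pseudogenes were named outside that rule after their values were seen. Alternatives were another pseudocount (0.1), a filter on mean FPKM (at least 0.5), TPM, all 15 mice in 1 fit, adjusted p-values, class code = alone, each mouse left out, and, chosen after seeing the data, the 5 libraries apart left out and Hspa1a and Hspa1b summed.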

Additional observations from a re-analysis of the deposited data

Results flagged for a closer look

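Within each age, the mouse farthest from the others was compared with the spread of all 5 (Dixon's ratio of gap to range, limit 0.710), for the gene levels, the leading isoform shares and the circles of Hspa8. Chance gives about 1 in 20 groups, and 12 of 63 groups passed. The isoform shares of a gene are not independent, and the sum of Hspa1a and Hspa1b repeats its parts.

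Among gene levels, 3-month-old mouse 5 was high for Hspa1a, at 22.8 FPKM with the next mouse at 10.8, and so for the sum of Hspa1a and Hspa1b, at 53.9 with the next at 28.4. Mouse 31 of 24 months was high for Hspa1b, at 7.01 FPKM with the next at 3.97. Hsp90aa1 was high in 12-month-old mouse 17, at 82.9 FPKM with the next at 68.7. Rbm3 was high in 3-month-old mouse 8, at 20.9 FPKM with the next at 15.4, and still below all 24-month-old mice.

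Among leading isoform shares, Hspa8 stood at 95.2% in 3-month-old mouse 6 with the next at 30.9%, and Hsp90aa1 at 61.9% in 24-month-old mouse 34 with the next at 94.3%. Hsph1 stood at 44.2% in 12-month-old mouse 21 with the next at 73.6%. For Dnajb1 the low mice were mouse 8 of 3 months (81.5%, next 97.4%) and mouse 32 of 24 months (94.2%, next 99.2%). For Hspb1 they were mouse 8 of 3 months (96.8%, next 99.6%) and mouse 21 of 12 months (92.2%, next 98.4%).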

How the results depend on the processing

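The 4 calls among the 9 genes other than Hsph1 at 24 against 3 months held under each alternative run for Hspa1b and Hspa8, for Hspa1a except that its adjusted p was not under 0.05, and for Cirbp except with class code = alone. Leaving out single mice lost none of them, with Hspb1 added without mouse 7, 31, 34 or 35 and Rbm3 without mouse 8. With the Hsph1 transcript ENSMUST00000202361 included, which carries no test, the 6 member transcripts past both limits became 11 with a pseudocount of 0.1 and 0 with adjusted p-values (14 at an unadjusted p under 0.05), and 6 to 10 without single mice (10 without mouse 31). Of all 124719 transcripts, 580 were called higher and 412 lower in the main fit, and 9855 had an unadjusted p under 0.05. With a pseudocount of 0.1 these calls became 3952 and 2147. Of the other chaperone, early and clock genes, the 14 called at 24 against 3 months became 7 with adjusted p-values and 12 to 15 without single mice. The 8 called at 12 against 3 months became 4 with class code = alone, 3 with adjusted p-values, and 4 to 9 without single mice (5 without mouse 5, 4 without mouse 18). The 3 called at 24 against 12 months became 6 with a pseudocount of 0.1, 6 with TPM, 0 with adjusted p-values (13 at an unadjusted p under 0.05), and 1 to 4 without single mice (1 without mouse 34). Of all 32282 genes, 21 were called higher and 34 lower in the main fit, and 2075 had an unadjusted p under 0.05. With a pseudocount of 0.1 these calls became 168 and 155, and with TPM 104 and 87. The 3 correlated pairs became 0 with class code = alone, 0 by Spearman's rho, and 0 to 5 without single mice (1 without mouse 21 or 31, 5 without mouse 32). The causes were not tested. The 0 shifts in leading isoform share stayed 0 under all its alternatives. No paired analysis was possible because the ages share no replicate numbers. FPKM gives no read counts, so for low members such as Dnajb1 and Cirbp counting error and spread between mice cannot be separated.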

Other observations

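Processed pseudogenes that share sequence with members had values of their own. Gm8355, which shares windows with Hspa8, measured 9.66 to 19.8 FPKM at 3 months, 4.603 to 25.0 at 12 months and 3.56 to 15.8 at 24 months, so its ages overlapped, unlike those of Hspa8 itself. Among the Hsp90aa1 windows 36.2% also occur in pseudogenes, and among those of Hspb1 53.4% occur in Hsp25-ps1, which was listed at a mean of 0.0110 FPKM. No window of the searched transcript of Hsph1, Hsp90ab1, Dnajb1 or Cirbp occurred in another gene of the annotation. For Cirbp that was the retained-intron ENSMUST00000140774, so its protein-coding isoforms were not searched. Of the Rbm3 windows 5.95% occurred in other genes, most of them in Rbm3-ps. Over 452 bases of Rbm3 the annotation places Rbm3os on the opposite strand, and their reads may not be separate.

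Per2, a clock gene that was not called, averaged 4.81 ± 0.982 FPKM at 3 months, 4.63 ± 1.34 at 12 months and 9.29 ± 3.01 at 24 months, so its 12-month-old mice were near the young mice, whereas those of Cirbp, Dbp and Hsph1 were near the 24-month-old mice. Among mice of 12 months, Rbm3 was lowest in mouse 21 (17.7 FPKM), in which Hsph1 (10.5) and Hspa8 (304) were lowest as well, and Hspa1b was listed at 0.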
